A study of Mus musculus with 6 samples.

Results

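Slfn4 and Slfn8 are 2 of the 149 genes in a deposited table that compares reperfused mouse hearts with and without trimethylamine N-oxide (TMAO), and they were taken from that table by their symbols. The table itself was selected on the same difference: every row, 100% of the 149, has an authors' FDR under 0.05 and a log2 fold change of 1 or more in size. The difference between groups therefore chose both genes, so it is given below as a description, with no test. The study measured poly(A)-selected RNA from the injured region of the heart of male, wild-type C57BL/6 mice. All mice had the left anterior descending branch of the coronary arteries closed for 45 min, followed by 24 h of reperfusion. The IR group (ischaemia-reperfusion alone, 3 libraries) received no TMAO, and the TMAO+IR group (3 libraries) drank water with 0.12% TMAO for 4 weeks before surgery and during the procedure. Both groups had the artery closed, so no library shows the level of these genes in an uninjured heart. Replicate numbers name libraries, and no label gives the age of the mice or says whether each library came from a separate animal.

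Schlafen genes, named after the German word for sleeping because the first members were tied to growth arrest of lymphocytes, encode proteins with a shared core domain that can bind nucleic acids. Many members are induced by type I interferon or by Toll-like receptor ligands, and they are best known in leukocytes. Slfn4 is an intermediate-length member studied mainly in monocytes, macrophages and neutrophils. Slfn8 is a long member that also carries a helicase-like region, and related long Schlafen proteins cut transfer RNA. The deposited annotation lists response to bacterium for Slfn4, and tRNA binding, endoribonuclease activity and defence against virus for Slfn8.

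Both genes lie in 1 cluster on chromosome 11 (GENCODE M21, GRCm38), where 9 Schlafen genes span 335 kb. Slfn8 (ENSMUSG00000035208) is on the minus strand at chr11:83002158-83020810 and has 6 annotated transcripts. Slfn4 (ENSMUSG00000000204) is on the plus strand at chr11:83175186-83190216 and has 3. The gap between them is 154 kb and holds Slfn10-ps, Slfn2 and Slfn1. Slfn3 starts 1114 bases after the end of Slfn4 on the same strand. Of the 50 protein-coding genes within 1 Mb of the cluster, 4 are rows of the table, and these 4 are Slfn1, Slfn3, Slfn4 and Slfn8. Over all genes, the 149 rows are 1.17% of the roughly 12721 that the authors' FDR values imply were tested, and 81.9% of the rows (122) are higher in TMAO+IR. The 50 are annotated genes, and how many of them were tested is not known here. The other members of the cluster, and genes beside it, were not analysed here.

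**Figure D1:**
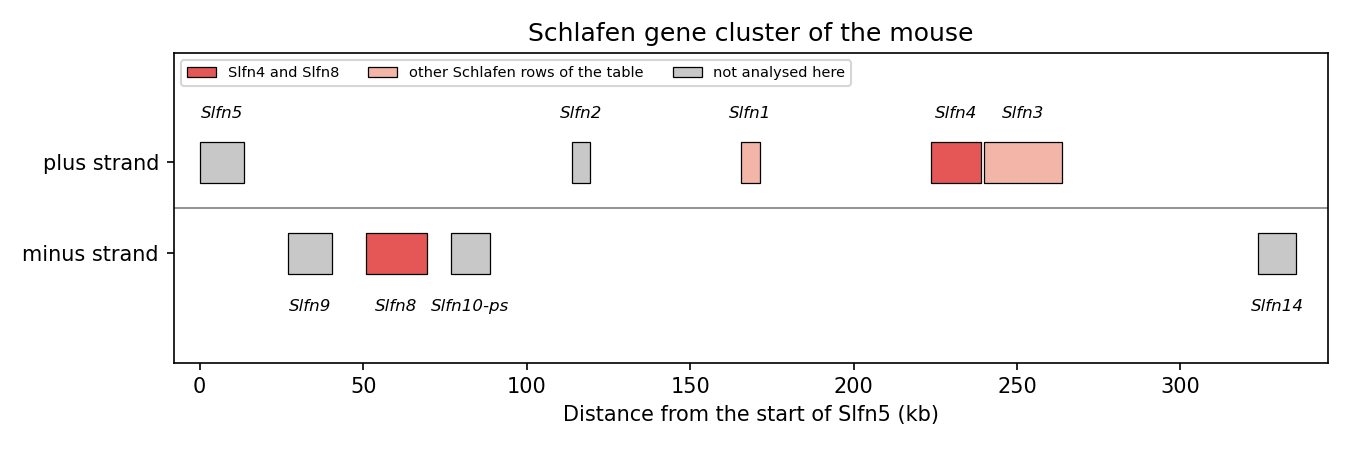
Map of the Schlafen cluster with distance from the start of Slfn5 in kb on the x axis and genes drawn on their strand. Slfn4 and Slfn8 are in red, the other Schlafen rows of the deposited table (Slfn1 and Slfn3) in pale red, and genes not analysed here in grey. Slfn4 adjoins Slfn3, and Slfn8 stands apart from both, beside Slfn9 and Slfn10-ps.

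The sequence before each start site is shown because Slfn4 and Slfn8 are both higher in TMAO+IR while their promoters share no exact match to the motifs searched. Each line gives the 250 bases before the first RefSeq start on GRCm38.p6, 5′ to 3′ on the strand of the gene. Capitals mark exact motif matches. Looser matches were not searched, so the lack of a capital does not mean that a related site is absent.
Slfn4 (chr11:83174936-83175185, plus strand): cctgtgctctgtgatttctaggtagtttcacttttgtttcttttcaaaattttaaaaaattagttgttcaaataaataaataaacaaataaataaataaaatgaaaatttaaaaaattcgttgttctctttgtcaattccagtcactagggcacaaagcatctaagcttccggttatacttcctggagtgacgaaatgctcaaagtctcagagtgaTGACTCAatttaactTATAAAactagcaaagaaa
Slfn8 (chr11:83020811-83021060, minus strand): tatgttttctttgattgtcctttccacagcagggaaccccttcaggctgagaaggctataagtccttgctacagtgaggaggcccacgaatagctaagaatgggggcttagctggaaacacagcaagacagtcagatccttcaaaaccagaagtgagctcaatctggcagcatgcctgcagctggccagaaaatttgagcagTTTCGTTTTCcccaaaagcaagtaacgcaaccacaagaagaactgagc

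In Slfn4 the capitals are a match to the AP-1 motif TGANTCA, 34 to 28 bases before the start, and a TATAAA box 19 to 14 bases before it. AP-1 is the dimer of Fos and Jun proteins. In Slfn8 they are a match on the opposite strand to the interferon-stimulated response element GAAANNGAAA, 48 to 39 bases before the start. A second RefSeq start of Slfn8 lies 88 bases downstream, and its window holds the same match. The same 10 letters stand in the promoter of Slfn9, the neighbour of Slfn8, 45 to 36 bases before its start. The other motifs searched on both strands, the gamma-activated site TTCNNNGAA, the PU.1 motif GAGGAAG and the NF-kB motif, had no exact match in either member. Among all 32851 promoter windows of this length, 2.98% held the interferon element, 6.75% the AP-1 motif and 12.4% the TATAAA box. In the 139 windows of the listed genes (109 of 149 genes matched by symbol), the shares were 7.91%, 10.8% and 15.8%. These windows include that of Slfn4 and both overlapping windows of Slfn8, so the shares are not independent of the members. The Slfn4 window is poor in G and C, at 29.6%, and only 1.30% of all windows have less, against 48.0% in Slfn8 and a median of 52.4%. A match is a description of these letters and shows no binding.

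The coding sequences set the members apart as well. The longest complete coding sequence has 602 codons in Slfn4 and 910 in Slfn8, against 640 in Slfn3 and 337 in Slfn1. Slfn4 and Slfn8 were 70.6% identical over 1423 aligned bases. Each was closer to a neighbour: Slfn4 to Slfn3 (93.2% over 1761 bases) and Slfn8 to Slfn9 (92.7% over 2733 bases). Exact stretches of 100 bases shared with transcripts of another gene made up 0.285% of the longest Slfn4 transcript, most of them shared with Gm11427. In Slfn3 the share was 4.93%, all with Gm11427. In the longest Slfn8 transcript such stretches made up 3.71%, most of them shared with Slfn10-ps. At 50 bases the shares were 11.6% in Slfn4, with Slfn3 the most frequent partner, and 15.4% in Slfn8. The sources used here do not say how reads that fit more than 1 copy were counted, so part of each count could belong to another of these genes.

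Slfn4 was higher in every TMAO+IR library than in any IR library. Its level was 1.33, 1.31 and 0.87 FPKM (fragments scaled to transcript length and library size) in IR replicates 1, 2 and 3, and 3.43, 3.27 and 2.95 FPKM in the TMAO+IR replicates. The groups did not overlap: the lowest TMAO+IR library was 2.95 FPKM and the highest IR library 1.33. Such a separation was seen in 77.9% of the 149 rows, which were selected on this contrast. The means were 1.17 ± 0.26 FPKM in IR and 3.22 ± 0.24 in TMAO+IR (SD, n = 3 each), 2.75-fold higher as a ratio of means. The mean log2(FPKM + 0.1) differed by 1.40, with a standard error of 0.19. The deposited Slfn4 counts were 101, 104 and 73 for the IR libraries, against 232, 256 and 235 for TMAO+IR. As CPM, which scales counts to library size but not to length, these were 4.88, 4.73 and 3.25 for IR, against 12.6, 11.9 and 11.3 for TMAO+IR. The 95% Poisson interval of the highest IR value (3.98 to 5.93) and that of the lowest TMAO+IR value (9.89 to 12.8) did not meet; these intervals cover counting error only. In the authors' deposited table Slfn4 had an FDR of 2.46e-07, the 4th smallest of the 149 rows.

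Slfn8 was lower than Slfn4 in all 6 libraries, and its groups overlapped in FPKM. It stood at 0.64, 1.05 and 0.47 FPKM in IR and at 2.08, 1.28 and 0.98 FPKM in TMAO+IR. IR replicate 2 (1.05) thus lay above TMAO+IR replicate 3 (0.98), and TMAO+IR replicate 1 stood far above the other two libraries of its group. Group means were 0.72 ± 0.30 FPKM in IR and 1.45 ± 0.57 in TMAO+IR (SD, n = 3 each). The ratio of means was 2.01, and the mean log2(FPKM + 0.1) differed by 0.91, with a standard error of 0.42. In the authors' deposited table the log2 fold change of Slfn8 was 1.01, just inside the limit, and only 3 rows had a smaller absolute value. Its FDR there was 0.0154, and its p-value implied a rank of about 255 among the roughly 12721 genes tested, against 4 for Slfn4. Genes outside the limits were not analysed here.

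Counts put the Slfn8 libraries in a different order. They were 47, 57 and 37 for the IR libraries, against 136, 100 and 76 for TMAO+IR. As CPM these were 2.27, 2.59 and 1.65 for IR, against 7.40, 4.64 and 3.65 for TMAO+IR, so the groups did not overlap on this scale. The difference in mean log2 CPM, with no constant added, was 1.23, with a standard error of 0.36. The ratio of the CPM means was 2.41. The Poisson interval of IR replicate 2 (1.96 to 3.36) still met that of TMAO+IR replicate 3 (2.88 to 4.57). Intervals that meet do not decide whether the values differ, and a difference between these libraries was not tested. Among the 149 rows, the 3 TMAO+IR libraries all stood above the 3 IR libraries in 77.9% by FPKM and in 80.5% by scaled counts. Slfn4 is among them on both scales and Slfn8 only in counts. Because the rows were selected on this contrast, nothing is read from these shares.

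**Figure D2:**
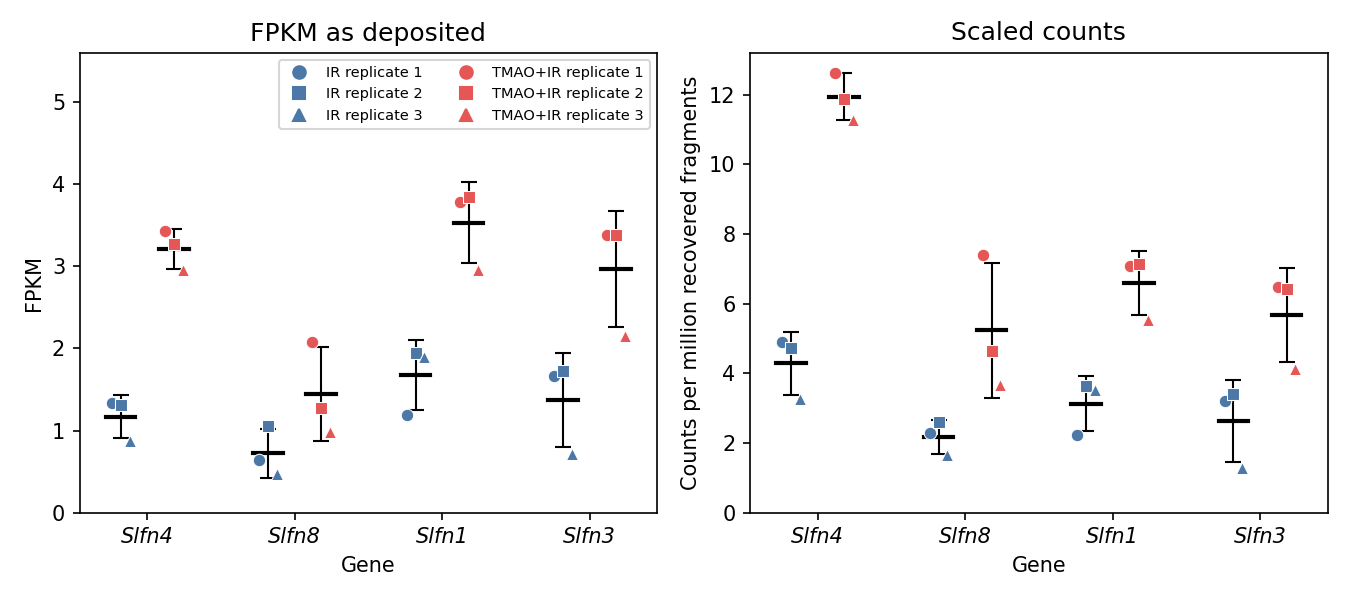
FPKM (left) and CPM (right) of Slfn4, Slfn8, Slfn1 and Slfn3 on the y axes, with blue for IR, red for TMAO+IR and 1 symbol per replicate number; bars are the mean and SD of 3 libraries. Slfn4 separates the groups on both scales, whereas for Slfn8 IR replicate 2 (1.05 FPKM) passes TMAO+IR replicate 3 (0.98 FPKM) on the left but not on the right.

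The overlap of the Slfn8 groups in FPKM involves 1 IR library, replicate 2. Count, FPKM and library size together imply the transcript length that each FPKM value was divided by. For Slfn8 this length was 3551, 3508, 3559, 3628 and 3724 bases in 5 libraries and 2469 bases in IR replicate 2. Annotated Slfn8 transcripts run from 1252 to 4011 bases, so every implied length lies within their range. For Slfn4 the implied length was 3610 to 3825 bases, for Slfn3 1820 to 1972 and for Slfn1, which has a single transcript of 1864 bases, 1862 to 1869. At the median ratio of the other 5 libraries, the 57 fragments of IR replicate 2 would equal 0.728 FPKM in place of 1.05, and the log2 difference of Slfn8 would be 1.07, with a standard error of 0.34, still below the 1.23 found in CPM. Slfn4, with no such library, also differed between the scales, at 1.40 in FPKM and 1.50 in CPM. This calculation was chosen after the values were seen. A library more than 20% under the median ratio of its own gene was found in 13 of the 114 rows with at least 20 counts and 0.4 FPKM in every library, and in 7 of them it lay further off than in Slfn8. The cause of the shorter implied length in IR replicate 2 was not tested.

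**Figure D3:**
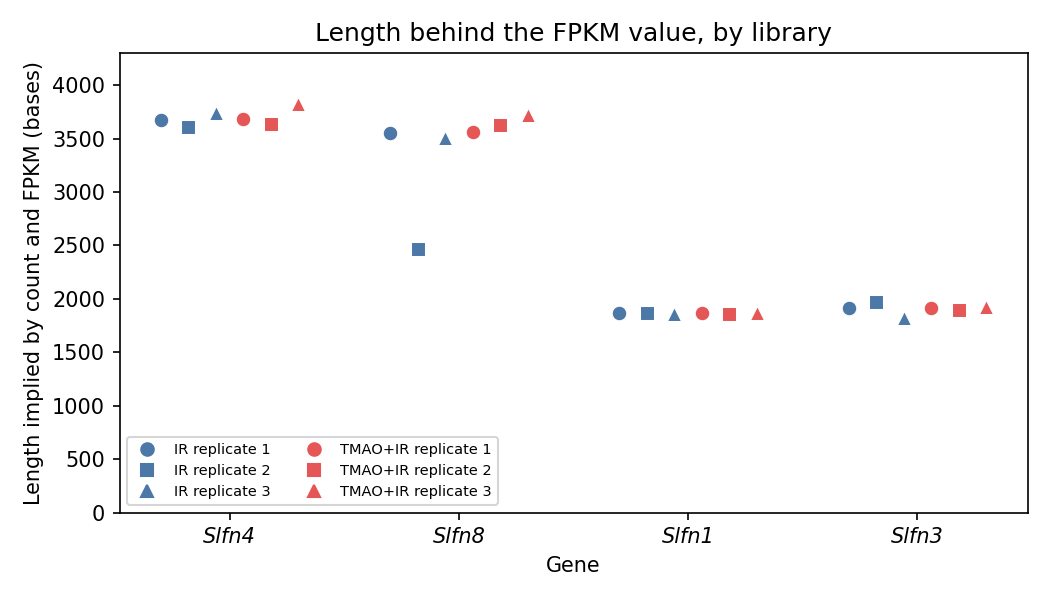
Transcript length in bases implied by count, FPKM and library size (y axis) for 4 Schlafen genes, 1 symbol per library. Slfn8 in IR replicate 2 stands at 2469 bases, while its other 5 libraries lie between 3508 and 3724 and the libraries of the other genes lie close together.

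Slfn1 and Slfn3, the other rows of the 10 genes in the Schlafen list, were higher in TMAO+IR too. Slfn1, a short member tied to restraint of T cell growth, went from 1.19, 1.95 and 1.89 FPKM in IR to 3.79, 3.84 and 2.96 in TMAO+IR. Slfn3, the closest relative of Slfn4, went from 1.67, 1.73 and 0.71 FPKM to 3.38, 3.38 and 2.15. For both genes all TMAO+IR libraries stood above all IR libraries in FPKM, as in 77.9% of the 149 rows. The log2 differences were 1.05 (standard error 0.25) for Slfn1 and 1.13 (0.44) for Slfn3, between those of Slfn8 and Slfn4 in FPKM. In CPM, with no constant added, they were 1.10 (0.26) for Slfn1, 1.20 (0.50) for Slfn3 and 1.23 (0.36) for Slfn8. There Slfn8 was above both. In FPKM the 4 genes had a median log2 difference of 1.09, against 1.17 over the 122 higher rows and 1.14 over all 149. Summed over the 4 genes, the level was 3.94 to 6.04 FPKM in IR and 9.04 to 12.7 in TMAO+IR.

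By level per length, the order in IR was Slfn1 (1.68 FPKM), Slfn3 (1.37), Slfn4 (1.17) and Slfn8 (0.72). Each of these neighbours overlapped in its libraries, with gaps of 0.31, 0.20 and 0.45 FPKM. In TMAO+IR, Slfn4 (3.22 FPKM) stood above Slfn3 (2.97) and below Slfn1 (3.53), again with overlap between neighbours. Slfn8 (1.45 FPKM) came last there, 1.52 FPKM below Slfn3, and its libraries did not overlap with those of Slfn3. Slfn4 made up 67.5%, 55.5% and 64.9% of the FPKM sum of Slfn4 and Slfn8 in the IR libraries, against 62.3%, 71.9% and 75.1% in TMAO+IR. The means were 62.6 ± 6.3% and 69.7 ± 6.7% (SD, n = 3 each), and the libraries of the groups overlapped. A difference in the balance between the members was not tested. By counts, the shares were 68.2%, 64.6% and 66.4% in IR libraries, against 63.0%, 71.9% and 75.6% for TMAO+IR. The difference in means was then 3.77 percentage points (66.4 ± 1.8% and 70.2 ± 6.4%), against 7.08 in FPKM, and the groups overlapped again.

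Within groups, Slfn4 had a higher correlation with Slfn3 than with Slfn8; the difference between these correlations was not tested. Each library was expressed as its deviation from its group mean in log2(FPKM + 0.1), which removes the difference that chose the genes. Over the 6 libraries, Pearson's r was 0.98 between Slfn4 and Slfn3, 0.72 between Slfn4 and Slfn8 and -0.25 between Slfn4 and Slfn1. Such values are common here: 20 of the 131 other rows with a mean of at least 0.5 FPKM had an r above 0.9 with Slfn4, and the median r was 0.53. Slfn8 stood 46th among the 131 rows by likeness to Slfn4, and Slfn3 stood 8th. The points share library and depth, and IR replicate 3 was the lowest library in 77 of the 122 higher rows, Slfn3, Slfn4 and Slfn8 included. TMAO+IR replicate 3 was the lowest of its group for all 4 Schlafen genes. Slfn3 and Slfn4 share 50-base stretches, and the part of this in their likeness was not tested.

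**Figure D4:**
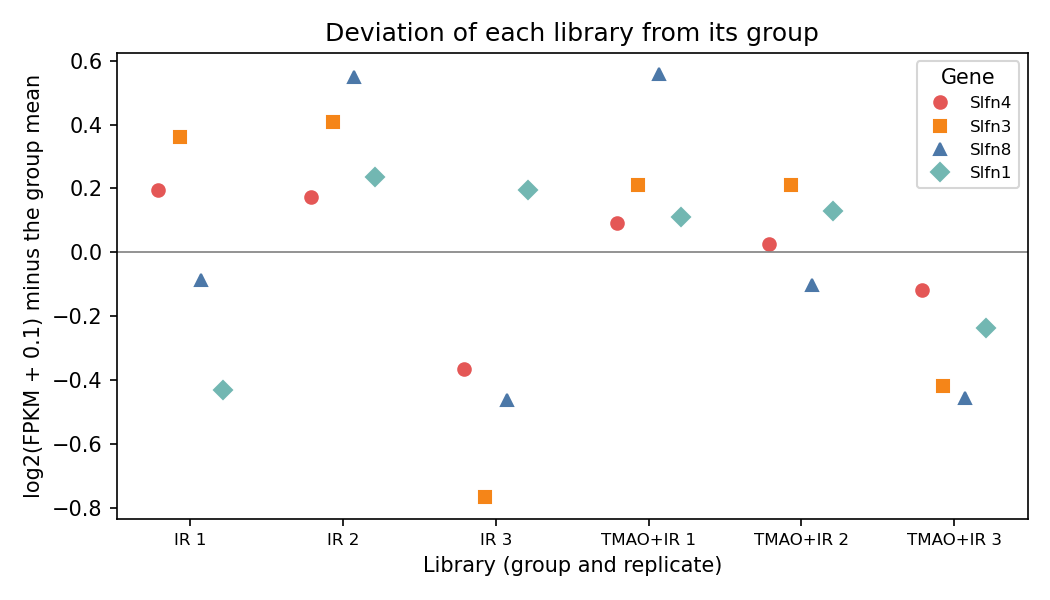
Deviation of each library from its group mean in log2(FPKM + 0.1) (y axis) for the 6 libraries on the x axis, with 1 symbol per gene. Slfn4 and Slfn3 lie on the same side of 0 in all 6 libraries, and Slfn8 reaches its highest values in IR replicate 2 and TMAO+IR replicate 1.

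The 5 rows most like Slfn4 within groups were Nfat5 (r = 0.996), Pik3c2a (0.994), Gm4070 (0.994), Sntb2 (0.984) and Acsl4 (0.983). Nfat5 encodes a transcription factor of the osmotic stress response, Pik3c2a a lipid kinase of endocytosis, and Acsl4 an enzyme that activates polyunsaturated fatty acids. For Slfn8 they were Olr1 (r = 0.952), Pi15 (0.948), Trim30a (0.933), Mpp7 (0.920) and Asb4 (0.913). Olr1 encodes a receptor for oxidised low-density lipoprotein, and Trim30a is an interferon-induced member of the tripartite motif family. The 2 sets have no gene in common. Only 6 libraries with 2 group means removed stand behind each r. For Slfn8 they include the FPKM of IR replicate 2, where the implied length was shorter. Its list was not repeated in CPM.

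Of 68 interferon-induced genes listed for comparison, 9 were rows of the table and all 9 were higher in TMAO+IR, with a median log2 difference of 1.09. Since 81.9% of all rows are higher and 1.17% of the genes tested are rows, the shared direction is near that of the table as a whole, and how many of the 68 were tested is not known here. Iigp1, an interferon-inducible GTPase that attacks the membranes of intracellular pathogens, went from 7.43 ± 2.25 to 17.8 ± 1.32 FPKM (SD, n = 3 each). Ifit1, which binds viral RNA ends, went from 3.51 ± 0.044 to 7.14 ± 1.72 FPKM. Herc6, a ubiquitin ligase, showed the highest difference of the 9, at 1.39 on the log2 scale, followed by Iigp1 at 1.29. The remaining 6 were Ifi203, Ifi204, Samd9l, Trim30a, Trim30b and Trim30d, with log2 differences of 1.14 or less. Within groups Iigp1 had an r of 0.974 with Slfn4 and 0.717 with Slfn8, while Ifit1 had 0.280 and 0.717. Of 21 interferon ligand, receptor and signalling genes, only the kinase gene Jak2 was a row (8.48 ± 2.42 to 17.9 ± 4.22 FPKM). Of 27 Toll-like receptor and NF-kB genes, only Tlr9, the receptor for unmethylated DNA, was a row (0.43 ± 0.13 to 0.92 ± 0.11 FPKM). Absence from the table says only that a gene was not analysed here.

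The myeloid markers that are rows of the table had higher group means in TMAO+IR, as did Slfn4 and Slfn8. In bulk tissue, more cells of a type and more RNA per cell cannot be told apart. Of 35 neutrophil markers, 1 was a row: Mmp8, a collagenase stored in neutrophil granules, at 3.53 to 6.75 FPKM in IR and 8.89 to 11.7 in TMAO+IR. Of 38 monocyte and macrophage markers, 3 were rows, and all 3 were higher, as were 81.9% of all rows. Rows are 1.17% of the genes tested, and how many of these markers were tested is not known here. These were Ccr2, the chemokine receptor of inflammatory monocytes (0.34 ± 0.14 to 1.01 ± 0.32 FPKM), Chil3, a secreted chitinase-like protein (1.10 ± 0.27 to 3.14 ± 1.47), and Cybb, which forms the catalytic core of the NADPH oxidase of phagocytes (2.20 ± 0.62 to 4.60 ± 0.50). Their summed level was 2.60 to 4.60 FPKM in IR and 6.84 to 10.8 in TMAO+IR, and none was listed at 0. No row was among 29 lymphocyte and natural killer cell markers. Within groups, r with Slfn4 was 0.529 for Mmp8, 0.558 for Ccr2, 0.539 for Chil3 and 0.940 for Cybb; with Slfn8 it was 0.507, 0.777, 0.314 and 0.861. The part of these cells in the difference of Slfn4 and Slfn8 was not tested. Of 18 cardiomyocyte markers only Myh7 was a row, so the label of heart tissue could not be checked from the table.

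The difference between groups was positive for both members in all settings run. Both genes were selected on this difference, so nothing is read from its sign. For Slfn4 the difference held between 1.22 and 1.60 on the log2 scale in 17 of 18 alternatives. These include the replicate block, which leaves the difference unchanged by construction. With a pseudocount of 1 FPKM it was 0.96. Slfn8 ranged more widely, from 0.50 with that pseudocount to 1.46 in CPM without TMAO+IR replicate 3. Leaving out TMAO+IR replicate 1, its highest library, gave 0.64 in FPKM with a standard error of 0.34, and leaving out IR replicate 2 gave 1.19 with 0.35.

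**Figure D5:**
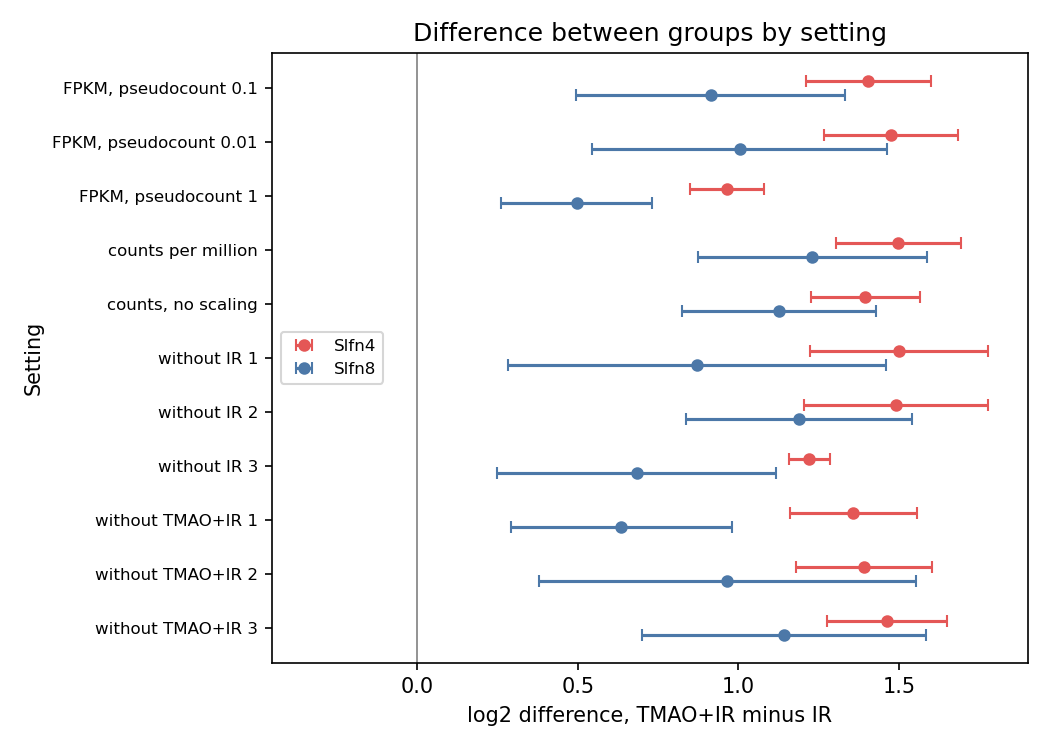
Difference between TMAO+IR and IR on the log2 scale (x axis) with its standard error, for Slfn4 (red) and Slfn8 (blue) under each setting on the y axis. All values lie above 0, for genes that were selected on this difference, and Slfn8 (0.91 in the setting of the text) has the wider standard errors.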

How the data were processed

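RNA-seq values of 6 libraries, 3 per group, were read from 1 deposited table. Read counts per gene are as deposited by the authors, without normalization. FPKM values per library, and group means of them, were made by the authors, per the file headers. The log2 fold change in the authors' table equals the log2 ratio of these means (largest difference 7.98e-09). The p-value and FDR are those deposited by the authors, from a test whose tool the sources used here do not name. Per the submitters' processing notes, StringTie 1.3.1, HISAT2, fastp 0.18.0, edgeR, DESeq2 and Bowtie2 2.2.8 were used with build GRCm38; their roles and order are not stated. Columns headed T-IR were matched to TMAO+IR, the only other group.

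Library sizes, 18371383 to 22442709 fragments, were estimated by dividing counts by FPKM in 86 rows, with 12 rows of 1 transcript setting the scale; they turn counts into CPM. Differences are means of log2(FPKM + 0.1), TMAO+IR minus IR, with standard errors from 3 libraries per group. For CPM and counts, no constant was added before taking log2. No test was run, since the rule used this contrast. Named genes are the members, listed genes of the Schlafen, interferon, Toll-like receptor and myeloid lists that are rows, and the 5 rows most alike. The members and lists were chosen with earlier results of these data known. Promoters are from RefSeq (GRCm38.p6). Coding sequences from GENCODE M21 were aligned globally with Biopython 1.88, in place of the planned protein comparison. Alternatives were other pseudocounts, counts, the replicate block and each library left out.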

Additional observations from a re-analysis of the deposited data

How the results depend on the processing

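No alternative turned the direction of either member, but both were selected on this contrast, so nothing is read from that. Slfn4 moved by more than the replicate SD only with a pseudocount of 1 FPKM (log2 difference 0.96). Slfn8 moved by more than its SD only in CPM without TMAO+IR replicate 3 (1.46), a setting chosen after the data were seen. Leaving out each library gave 1.22 to 1.50 for Slfn4 and 0.64 to 1.19 for Slfn8 in FPKM, and 1.31 to 1.60 and 0.95 to 1.46 in CPM. The replicate block leaves the differences at 1.40 for Slfn4 and 0.91 for Slfn8 by construction, since each number occurs once per group. It changes only the standard errors, to 0.12 for Slfn4 and 0.37 for Slfn8. Over 132 rows, the deviations of IR and TMAO+IR libraries with the same number correlated at -0.21 for number 1, 0.19 for number 2 and 0.0029 for number 3, so the numbers were not taken as pairs. The likeness of Slfn4 and Slfn8 was 0.634 to 0.897 with 1 library left out, the highest without IR replicate 1. The Slfn4 share exceeded that of IR by 7.08 percentage points, and by 3.51 to 10.8 with 1 library left out. Without the filter on low values, the 5 rows most like Slfn4 were the same and 4 of 5 remained for Slfn8. The row most like Slfn8 was then Slc4a1 (r = 0.971), which was lower in TMAO+IR (log2 difference -1.04). Slfn8 had 37 to 57 fragments per IR library, which limits the precision of its values.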
